A study of Homo sapiens with 16 samples.

Results

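The 54 genes described here encode the machinery of chromosomal DNA replication and the S-phase supply lines that serve it. They came from a list of replication genes that was chosen with earlier results of these data known. Each was read on the brightest of the probe sets that name that gene alone, and all 54 of the 54 listed genes could be read among the 18132 genes measured. They were divided by role into origin licensing (4 genes), the replicative helicase (12), DNA polymerases (9), the sliding clamp and its loaders (7), strand binding and ligation (5), nucleotide supply (5), chromatin and histone supply (4), E2F factors (3) and fork or checkpoint factors (5).

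The arrays, Affymetrix PrimeView chips, measured total RNA from Nalm6, an established human B-cell precursor acute lymphoblastic leukaemia line grown in RPMI1640 medium with serum and glutamine. Each of 4 groups had 4 arrays: Nalm6 control cells without drug, Nalm6 control cells after 24 hours of prednisolone, Nalm6 cells labelled as carrying active, overexpressed CASP1 without drug, and those cells after 24 hours of prednisolone. Prednisolone is a synthetic glucocorticoid that activates the glucocorticoid receptor; the sources used here give neither its dose nor the construct and number of clones behind the CASP1 label, and the sample labels spell the drug "predisone". The series title places the comparison in a study of CASP1 cleavage of that receptor and glucocorticoid resistance. The CASP1 signal itself went against the label, with group means of 7.75 in untreated control cells and 5.69 in the untreated cells labelled CASP1 (difference -2.06, SE 0.13, limma adjusted p = 2.3e-08), so those cells are called "labelled CASP1" and every direction between the lines follows the labels alone.

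Replication starts when the origin recognition complex, CDC6 and CDT1 load the ring of MCM2 to MCM7 onto DNA in G1, a step called licensing. CDC45 and the GINS subunits turn that ring into the active helicase, polymerase alpha with primase lays down primers, and polymerases delta and epsilon copy the strands on the PCNA clamp. Most of these genes are transcribed under E2F control as cells enter S phase, so their RNA is known to be high in cycling lymphoblasts.

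All values below are log2 signals, and a difference of 1 is a doubling. Array medians lay between 4.85 and 4.93, and arrays of a group correlated at 0.9832 to 0.9973 over all probe sets. The labels do not say that replicates came from separate cultures, so every p measures only the spread among these arrays. All 13 measured B-precursor markers lay above the median gene (5.47), against 1 of 8 T and NK cell markers (NKG7), 0 of 7 myeloid markers and 0 of 6 erythroid and stromal markers. Replicate 1 stood apart in the median of the 54 genes in both treated groups, and in single genes in the untreated groups too. The median of the 54 genes was 0.19 above its group mean in replicate 1 of the treated control cells and 0.19 below it in replicate 1 of the treated cells labelled CASP1, while no other array deviated by more than 0.09. In the latter array the summed B-precursor marker signal was also lowest, at 14.71 against 15.12 to 15.34 on the other 15 arrays, and the interaction count given further on rose from 14 to 26 genes when this array was left out. Counts are therefore also given without the 4 arrays of replicate 1.

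Prednisolone lowered the RNA signal of nearly all these replication genes in control cells. Of the 54 genes 50 were called lower at an adjusted p under 0.05, 1 was called higher (POLA2, a subunit of polymerase alpha) and 3 were not called (GINS3, PRIM1 and RPA1). Of all 18132 genes, 8.43% were called lower and 5.73% higher in this comparison. The median difference of the 54 genes was -0.90, which is 53.6% of the untreated signal, against -0.01 over all genes, and 20 genes fell to less than 50% of their untreated signal. In 53 of the 54 the treated and untreated arrays did not overlap, RPA1 being the exception, where 20.9% of all genes had no overlap. In bulk RNA, fewer cells in S phase and less of each RNA per cell cannot be told apart.

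**Figure D1:**
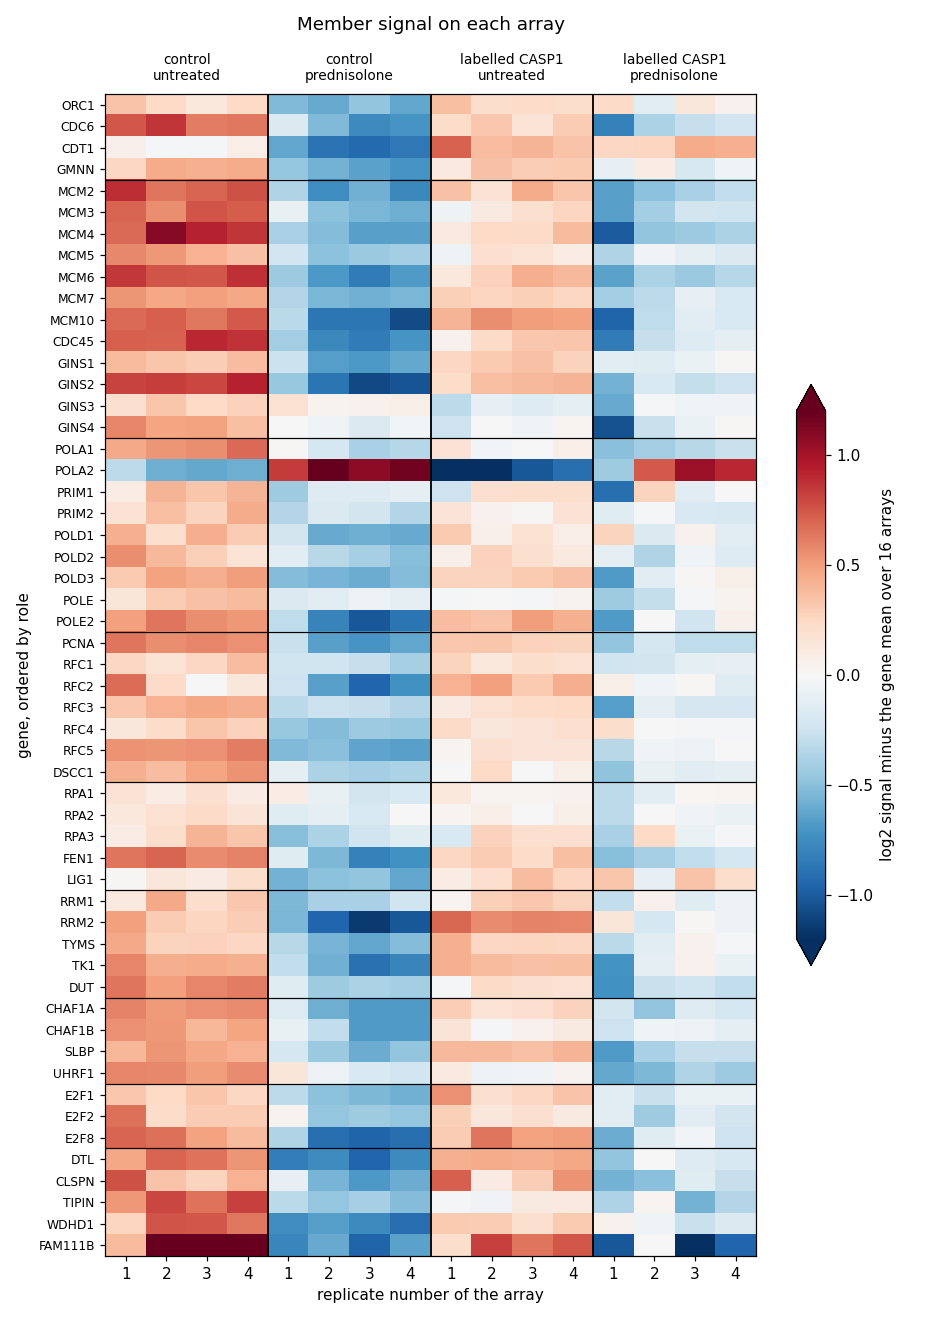
Log2 signal of each of the 54 genes (rows, ordered by role) on each of the 16 arrays (columns, by group and replicate number), as the deviation from that gene's mean over the 16 arrays. Untreated control arrays are above the gene mean in nearly every row and treated control arrays below it, POLA2 runs the other way, and replicate 1 of the treated cells labelled CASP1 is darker blue than the other 3 arrays of its group in many rows.

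By array, the median deviation of the 54 genes from their means over 16 arrays was 0.48, 0.45, 0.44 and 0.44 in untreated control cells. It was -0.31, -0.52, -0.58 and -0.59 in treated control cells. The untreated cells labelled CASP1 gave 0.22, 0.23, 0.22 and 0.26, and their treated counterparts gave -0.43, -0.14, -0.13 and -0.13. Untreated control cells thus held the highest values and treated control cells the lowest, with both CASP1-labelled groups in between except for 1 treated array. Untreated control cells had the highest group mean for 47 genes and treated control cells the lowest for 44. Within groups, each gene's deviations from its group means correlated with the median of the other genes at a median r of 0.68 over the 16 arrays. That r exceeded 0.5 for 32 of the 54 genes and ran from -0.56 for RFC4 to 0.95 for MCM10. All points share the same arrays and their normalization. The median of the 54 genes deviated most in replicate 1 of the treated groups (0.19 in control cells, -0.19 in cells labelled CASP1). On all other arrays it lay between -0.09 and 0.08. The r was not computed without these replicate 1 arrays, so it does not show that the genes varied together on the others.

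S-phase genes are known to be driven through E2F sites in their promoters, often with CCAAT boxes nearby. Windows from 250 bases before to 50 bases after the RefSeq start (GRCh38.p14) were matched for 45 of the 54 genes. The E2F octamers TTTCGCGC and TTTGGCGC, read on both strands, were present in 13 of these 45 windows (28.9%). Their share was 1.18% of all 27305 promoters and 1.7% of the 14425 promoters of tested genes. The CCAAT box, to which NF-Y binds, was present in 25 of 45 (55.6%), against 35.7% of all promoters and 36.4% of those of tested genes. The CHR element TTTGAA of G2 and mitosis genes was present in 1 of 45 (RRM1, 2.22%), against 15.4% and 12.1%. The 13 genes with an octamer had a median control response of -0.99 and the 32 without one -0.89. A match is a description of the letters in the window. The 250 bases before the start are shown, 5′ to 3′ on the gene's strand, for strongly lowered genes (MCM6, DTL), for E2F1 itself, and for the 2 polymerase alpha subunits that moved in opposite directions; capitals mark E2F octamers and CCAAT boxes on either strand, overlapping matches being merged. They lie at chr2:135876444-135876693 (minus strand, MCM6), chr1:212035498-212035747 (plus, DTL), chr20:33686386-33686635 (minus, E2F1), chrX:24693668-24693917 (plus, POLA1) and chr11:65261712-65261961 (plus, POLA2).
MCM6: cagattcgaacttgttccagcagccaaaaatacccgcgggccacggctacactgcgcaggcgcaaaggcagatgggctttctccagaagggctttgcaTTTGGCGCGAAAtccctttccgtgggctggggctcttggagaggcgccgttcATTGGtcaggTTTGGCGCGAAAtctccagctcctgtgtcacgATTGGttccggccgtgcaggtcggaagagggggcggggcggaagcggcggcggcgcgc
DTL: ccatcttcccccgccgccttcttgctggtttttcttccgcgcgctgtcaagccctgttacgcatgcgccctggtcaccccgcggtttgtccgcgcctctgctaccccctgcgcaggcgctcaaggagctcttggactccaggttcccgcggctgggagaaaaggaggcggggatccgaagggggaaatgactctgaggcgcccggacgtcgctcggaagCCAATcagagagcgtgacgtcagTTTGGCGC
E2F1: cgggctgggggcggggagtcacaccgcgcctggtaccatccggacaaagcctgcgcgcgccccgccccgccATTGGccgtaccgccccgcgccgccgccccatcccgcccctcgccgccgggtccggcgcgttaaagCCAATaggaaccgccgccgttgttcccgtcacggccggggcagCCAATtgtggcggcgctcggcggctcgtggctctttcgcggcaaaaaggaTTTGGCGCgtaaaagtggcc
POLA1: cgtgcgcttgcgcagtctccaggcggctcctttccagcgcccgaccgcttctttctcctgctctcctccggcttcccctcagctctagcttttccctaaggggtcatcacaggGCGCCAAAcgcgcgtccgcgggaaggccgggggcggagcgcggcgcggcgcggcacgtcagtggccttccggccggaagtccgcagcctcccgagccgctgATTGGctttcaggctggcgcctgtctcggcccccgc
POLA2: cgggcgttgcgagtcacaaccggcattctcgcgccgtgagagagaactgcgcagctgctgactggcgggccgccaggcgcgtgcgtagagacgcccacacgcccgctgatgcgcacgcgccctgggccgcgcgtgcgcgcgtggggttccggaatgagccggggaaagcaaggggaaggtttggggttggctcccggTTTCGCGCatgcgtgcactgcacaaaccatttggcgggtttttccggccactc

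In these windows the MCM6 promoter held 4 octamer matches, which overlap in pairs at 2 places, and 2 CCAAT boxes. The single octamer of DTL ended at the base before the start. E2F1 had 1 octamer and 3 CCAAT boxes. POLA1 and POLA2 each had 1 octamer, and only POLA1 of these 2 had a CCAAT box in its window. Every window shown thus held an octamer, whereas 32 of the 45 matched windows held none. Those without one included GINS2 (-1.70), MCM10 (-1.48) and CDC45 (-1.48), which fell at least as far in control cells as MCM6 (-1.47) and DTL (-1.41).

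Origin licensing genes fell in control cells in 4 of 4 cases, with a median of -0.92. CDC6, the loader that brings the MCM ring to the origin, read 9.17, 9.28, 9.04 and 9.06 in untreated control cells and 8.25, 7.89, 7.66 and 7.72 after prednisolone, so the groups lay well apart (difference -1.25, SE 0.13, adjusted p = 2.2e-06). Cells labelled CASP1 read 8.64, 8.75, 8.59 and 8.73 untreated and 7.61, 8.04, 8.15 and 8.19 treated, a fall of 0.68 (SE 0.13, adjusted p = 0.0033). The rest of the group lost less in control cells. GMNN, or geminin, the inhibitor of CDT1, changed by -0.98, CDT1 by -0.85 and ORC1, the largest subunit of the recognition complex, by -0.79, each called. In the cells labelled CASP1 only CDC6 and GMNN of the 4 were called (GMNN -0.34, adjusted p = 0.028), and the GMNN call was lost without any of 5 of the 8 arrays, at values of -0.39 to -0.29 over the 8. CDT1 (-0.11, 95% interval -0.31 to 0.09) and ORC1 (-0.18) were not called there.

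CDT1 stood out from its role group in level as well as response. Untreated control cells gave 9.68, 9.60, 9.61 and 9.70, and treated control cells 9.0, 8.74, 8.69 and 8.77. Cells labelled CASP1 gave 10.33, 9.99, 10.03 and 9.97 untreated and 9.87, 9.88, 10.07 and 10.05 treated. Every array of the cells labelled CASP1 was thus above every control array, and their treated and untreated arrays overlapped. The line difference was 0.43 without drug (SE 0.095, adjusted p = 0.0048) and 1.17 with it (SE 0.095, adjusted p = 3e-07), the largest of the 54 genes in both comparisons on the higher side. The other 2 CDT1 probe sets had untreated line differences of 0.19 and 0.16, not called over all probe sets with 1 gene, and treated ones of 0.98 and 0.92, both called.

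The helicase genes showed a deep and broad fall in signal, with 11 of 12 called lower in control cells and a median of -1.24 (42.5% of the untreated signal). GINS2, a subunit of the GINS complex, had the largest fall of the group. Its untreated control arrays read 9.30, 9.32, 9.29 and 9.41 and its treated ones 8.04, 7.61, 7.41 and 7.45, which is a drop to 30.7% (-1.70, SE 0.12, adjusted p = 2e-08). The readings in the cells labelled CASP1 were 8.71, 8.85, 8.88 and 8.90 untreated and 7.92, 8.31, 8.20 and 8.24 treated (-0.67, SE 0.12, adjusted p = 0.0017). Neither pair of groups overlapped.

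All 6 genes of the MCM ring were called lower in control cells: MCM6 by -1.47, MCM4 by -1.44, MCM2 by -1.36, MCM3 by -1.11, MCM7 by -0.99 and MCM5 by -0.86. They were called in the cells labelled CASP1 in 5 of 6 cases, at -0.81 (MCM4) to -0.51 (MCM3), while MCM5 had -0.27. The MCM3 call there was lost without replicate 4 of the untreated cells labelled CASP1 (-0.46, adjusted p = 0.053). MCM10 and CDC45, which help to convert the loaded ring into a moving helicase, both fell by 1.48 on the log2 scale in control cells, and their differences in cells labelled CASP1 were -0.88 and -0.59. MCM10 on its own illustrates replicate 1: the treated control arrays read 8.82, 8.27, 8.27 and 8.07, and the treated arrays labelled CASP1 read 8.18, 8.84, 9.01 and 8.96. With replicate 1 the treated groups overlapped, and among the other 3 arrays of each they did not.

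The 4 GINS subunits did not move alike. Beside GINS2, GINS1 was called lower at -0.90 and GINS4 at -0.54 (adjusted p = 0.031), the latter losing its call without any of 6 of the 8 arrays, at -0.58 to -0.50 over the 8. GINS3 read 8.94, 9.08, 8.98 and 9.02 in untreated control cells and 8.93, 8.79, 8.80 and 8.82 after the drug. That difference of -0.17 (SE 0.11, adjusted p = 0.42) was not called, and it became -0.22 (adjusted p = 0.018) without the arrays of replicate 1. In cells labelled CASP1 the GINS3 difference was -0.02, with a 95% interval of -0.25 to 0.22.

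DNA polymerase genes held the one gene that rose. In control cells 7 of the 9 were called lower, POLA2 was called higher and PRIM1 was not called, with a median of -0.69. POLE2, the second subunit of polymerase epsilon, fell most. It read 7.57, 7.72, 7.64 and 7.60 untreated and 6.77, 6.28, 6.06 and 6.20 treated in control cells (-1.30, SE 0.15, adjusted p = 6.1e-06), with no overlap. The line labelled CASP1 gave 7.45, 7.42, 7.58 and 7.5 against 6.40, 7.07, 6.84 and 7.14 (-0.63, adjusted p = 0.016), a call lost without replicate 3 of the untreated group (adjusted p = 0.051). The polymerase delta subunits POLD3 (-0.98), POLD1 (-0.84) and POLD2 (-0.69) and the polymerase epsilon catalytic subunit POLE (-0.42) were called lower in control cells. Of these 4, POLD3 alone was called in cells labelled CASP1 (-0.48, adjusted p = 0.022); that call was lost without replicate 3 or replicate 4 of the untreated arrays there, and its value ranged from -0.57 to -0.32 without 1 array.

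Polymerase alpha works as 1 complex with primase, and its 4 subunit genes were split. POLA2, the regulatory subunit that tethers the catalytic subunit, read 8.17, 7.90, 7.87 and 7.90 in untreated control cells and 9.32, 9.68, 9.56 and 9.64 after prednisolone, a 3.01-fold rise (1.59, SE 0.22, adjusted p = 5e-05). The CASP1-labelled arrays read 7.23, 7.25, 7.47 and 7.58 untreated and 8.06, 9.22, 9.51 and 9.39 treated, a 3.17-fold rise (1.66, SE 0.22, adjusted p = 7.6e-05). No treated array overlapped the untreated ones in either line, although replicate 1 of the treated cells labelled CASP1 rose far less than the other 3 arrays. Without the arrays of replicate 1 the rises were 1.74 and 1.94.

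A second probe set for POLA2 gave the same direction. Its group means were 7.85 (SD 0.077, n = 4) and 8.99 (SD 0.26, n = 4) in untreated and treated control cells, and 7.48 (SD 0.087, n = 4) and 8.69 (SD 0.46, n = 4) in cells labelled CASP1. Over all probe sets with 1 gene these differences, 1.14 and 1.21, were called with adjusted p = 0.000143 and 0.000208. POLA1, the catalytic subunit, moved the opposite way: it read 8.28, 8.35, 8.38 and 8.5 in untreated and 7.84, 7.61, 7.43 and 7.48 in treated control cells (-0.79, SE 0.095, adjusted p = 1.1e-05), and it fell by 0.44 on the log2 scale in cells labelled CASP1 (adjusted p = 0.008). PRIM2, the large primase subunit, was called lower in control cells (-0.59). PRIM1, the small one, read 9.66, 9.98, 9.90 and 9.98 untreated and 9.14, 9.42, 9.42 and 9.45 treated there, a difference of -0.53 that was not called with all arrays (limma adjusted p = 0.069). With replicate 1 left out it had the same size and was called (limma adjusted p = 0.00057).

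**Figure D2:**
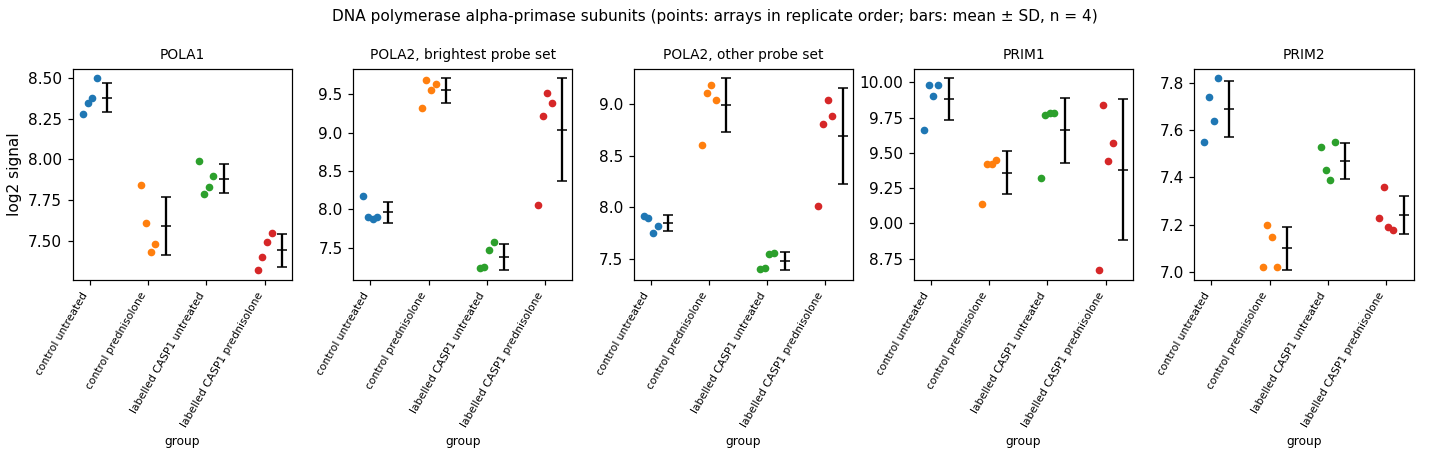
Log2 signal on each array for the 4 subunits of DNA polymerase alpha-primase, with POLA2 on both of its probe sets; points are arrays in replicate order and bars show the mean and SD of 4 arrays, and each panel has its own axis. Both POLA2 panels rise with prednisolone in both lines (control means 7.96 to 9.55 on the brightest probe set) while POLA1 falls.

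Genes of the clamp and its loaders were called lower in control cells in 7 of 7 cases, with a median of -0.78. PCNA, the sliding clamp, read 12.49, 12.40, 12.43 and 12.39 in untreated and 11.58, 11.19, 11.14 and 11.22 in treated control cells, a fall to 45.3% (-1.14, SE 0.094, adjusted p = 1.2e-07). Cells with the CASP1 label gave 12.17, 12.18, 12.12 and 12.11 against 11.37, 11.63, 11.54 and 11.54 (-0.62, SE 0.094, adjusted p = 0.0003). Neither comparison overlapped. With the mean of its 2 probe sets in place of the brightest, the PCNA difference in cells labelled CASP1 was -0.41 and not called (adjusted p = 0.12).

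The 5 subunits of replication factor C, which opens the clamp and places it on DNA, fell in control cells by differing amounts: RFC5 -1.14, RFC2 -0.90, RFC4 -0.71, RFC3 -0.71 and RFC1 -0.54. RFC3 and RFC4 lost the call when the median of their probe sets was used (-0.42 and -0.10). The other 2 RFC4 probe sets were dim, with means of 2.85 and 2.31 over the 16 arrays. DSCC1, a subunit of an alternative clamp loader, was called lower at -0.78. In cells labelled CASP1 the called genes of the group were PCNA, RFC3 (-0.48) and RFC1 (-0.36). With the mean of their probe sets both lost the call, RFC3 at -0.27 (limma adjusted p = 0.15) and RFC1 at -0.20 (limma adjusted p = 0.18), and RFC3 also lost it with the median (-0.29) and with the 8 arrays of that line alone (limma adjusted p = 0.059). RFC5, the largest faller of the loaders in control cells, had -0.25 (adjusted p = 0.09).

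Strand binding and ligation genes had the smallest median of the 9 roles in control cells, -0.58, with 4 of 5 called lower. FEN1, the endonuclease that trims flaps of Okazaki fragments, read 9.96, 10.02, 9.89 and 9.92 untreated and 9.18, 8.78, 8.51 and 8.60 treated in control cells (-1.18, SE 0.12, adjusted p = 1e-06). Cells labelled CASP1 read 9.57, 9.63, 9.54 and 9.68 against 8.81, 8.92, 9.03 and 9.11 (-0.64, adjusted p = 0.002), and it was the one gene of the group called there. LIG1, the ligase that seals the fragments, fell by 0.65 on the log2 scale in control cells and had -0.03 in cells labelled CASP1.

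Replication protein A, a complex of 3 subunits, coats single-stranded DNA. RPA3 was called lower in control cells at -0.58 and RPA2 at -0.28 (adjusted p = 0.024); the RPA2 call was lost without any of 5 of the 8 arrays and after quantile normalization. RPA1 read 10.78, 10.69, 10.80 and 10.70 untreated and 10.69, 10.52, 10.38 and 10.42 treated, with 1 treated array inside the untreated range, and its difference of -0.24 was not called (adjusted p = 0.099). Without the arrays of replicate 1 it was -0.29 (adjusted p = 0.0097). In cells labelled CASP1 the 3 RPA genes had -0.18 to -0.16, none called.

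Nucleotide supply genes were called lower in 5 of 5 cases in control cells (median -0.93) and in 4 of 5 in cells labelled CASP1 (median -0.53). RRM2, the small subunit of ribonucleotide reductase, read 10.81, 10.62, 10.57 and 10.61 untreated and 9.77, 9.36, 9.17 and 9.30 treated in control cells (-1.25, SE 0.11, adjusted p = 4e-07). The readings in the cells labelled CASP1 were 11, 10.88, 10.91 and 10.90 against 10.46, 10.10, 10.33 and 10.25 (-0.63, adjusted p = 0.0018). The thymidine kinase TK1 (-1.12), the dUTPase DUT (-0.93), the thymidylate synthase TYMS (-0.82) and the large reductase subunit RRM1 (-0.66) were the others called in control cells. RRM1 was the gene not called in cells labelled CASP1 (-0.34). This depended on the setting, since RRM1 was called there with the replicate block (limma adjusted p = 0.01) and without the arrays of replicate 1 (limma adjusted p = 0.015). TYMS and TK1 lost the call with the 8 arrays of that line alone (limma adjusted p = 0.064 and 0.056).

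Chromatin and histone supply genes were called lower in 4 of 4 cases in control cells, with a median of -0.90. CHAF1A, the large subunit of the chromatin assembly factor that loads histones behind the fork, read 9.85, 9.76, 9.80 and 9.82 untreated and 9.09, 8.67, 8.57 and 8.57 treated (-1.08, SE 0.11, adjusted p = 1e-06). The line labelled CASP1 gave 9.55, 9.42, 9.45 and 9.53 against 9.03, 8.78, 9.10 and 9.04 (-0.50, adjusted p = 0.0071). SLBP, which binds the stem loop of histone mRNA, kept most of its response. It changed by -0.88 in control cells and by -0.79 (SE 0.098, adjusted p = 3.8e-05) in cells labelled CASP1. Without the arrays of replicate 1 these SLBP responses were further apart, at -0.98 and -0.70. CHAF1B, a smaller subunit of the assembly factor, had -0.92 and -0.19, the second not called. UHRF1, which guides maintenance DNA methylation at forks, was called lower in both lines (-0.64 and -0.50).

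The E2F factors, which bind the promoters of S-phase genes, were called lower in 3 of 3 cases in control cells. E2F8, a repressor made in S phase, read 9.16, 9.12, 8.94 and 8.84 in untreated and 8.10, 7.56, 7.5 and 7.56 in treated control cells (-1.33, SE 0.14, adjusted p = 1.9e-06). The CASP1-labelled arrays read 8.77, 9.10, 8.94 and 8.96 against 7.87, 8.32, 8.43 and 8.21 (-0.74, adjusted p = 0.0026). The activators E2F1 (-0.76) and E2F2 (-0.70) were also called in control cells, and E2F1 in cells labelled CASP1 as well (-0.47), where E2F2 had -0.41 and was not called. E2F2 was called there with the replicate block (limma adjusted p = 0.0084) and without the arrays of replicate 1 (limma adjusted p = 0.004).

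Fork and checkpoint factors had the deepest median of the 9 roles in control cells, -1.37, with 5 of 5 called lower. FAM111B, a nuclear serine protease, had the largest fall of all 54 genes. It read 6.11, 6.92, 6.97 and 6.93 untreated and 4.95, 5.12, 4.77 and 5.09 treated in control cells (-1.75, SE 0.25, adjusted p = 5.9e-05). Cells with the CASP1 label gave 5.94, 6.55, 6.37 and 6.47 against 4.71, 5.73, 4.24 and 4.78 (-1.46, SE 0.25, adjusted p = 0.00096), also the largest fall there, with no overlap in either line. DTL, the receptor by which a ubiquitin ligase captures CDT1, changed by -1.41, WDHD1, which couples helicase and polymerase alpha, by -1.37, TIPIN, a fork protection factor, by -1.12 and CLSPN, the checkpoint mediator claspin, by -0.93 in control cells. In cells labelled CASP1 CLSPN (-0.78), DTL (-0.64) and WDHD1 (-0.40, adjusted p = 0.032) were called and TIPIN (-0.36) was not. The WDHD1 call there was lost without any of 5 of the 8 arrays, at -0.45 to -0.34 over the 8.

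Over all roles, 31 of the 54 genes were called lower and 1 higher (POLA2) in the cells labelled CASP1, where 3.35% of all genes were called lower and 2.99% higher. The median difference was -0.42, which is 74.7% of the untreated signal, and 1 gene (FAM111B) fell to less than 50%. Without the arrays of replicate 1, 53 genes were called lower in control cells, and cells labelled CASP1 had 36, with medians of -0.96 and -0.39. The shares of all genes called lower rose as well under that change, to 13.1% and 6.15%. Leaving out 1 array at a time, 49 of the 51 calls in control cells and 27 of the 32 in cells labelled CASP1 held every time. Calls over all genes then ran from 2035 to 2556 and from 791 to 1292, against 2568 and 1150 with all arrays.

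The same 53 genes lay below 0 in both lines, and each of the 53 had a smaller fall in the cells labelled CASP1. There the response was at the median 49.3% of the control response, from 5.28% for LIG1 to 89.4% for SLBP. FAM111B kept 83.7% and CLSPN 84.1%, while CDT1 kept 13%, RFC4 18.7% and POLD1 18.9%. FAM111B and CLSPN are read from dim signals, since their treated means (4.99 and 4.87 for FAM111B, 5.21 and 5.32 for CLSPN, in control cells and cells labelled CASP1) lay close to the array medians. Without the arrays of replicate 1, 51 of the 53 genes lay below 0 in both lines, the fall was still smaller in the cells labelled CASP1 for all 53, and the median share was 38.5%. The lowest shares moved with those arrays: LIG1 then kept 18.7%, CDT1 had a response of 0.00 and GINS3 one of 0.08 in cells labelled CASP1. CLSPN kept 64.7%, SLBP 71.6% and FAM111B 79.3%. Responses of the lines correlated over the 54 genes at r = 0.89, or 0.77 over 53 without POLA2; the lines share no array in these responses, and the genes are not independent of each other.

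**Figure D3:**
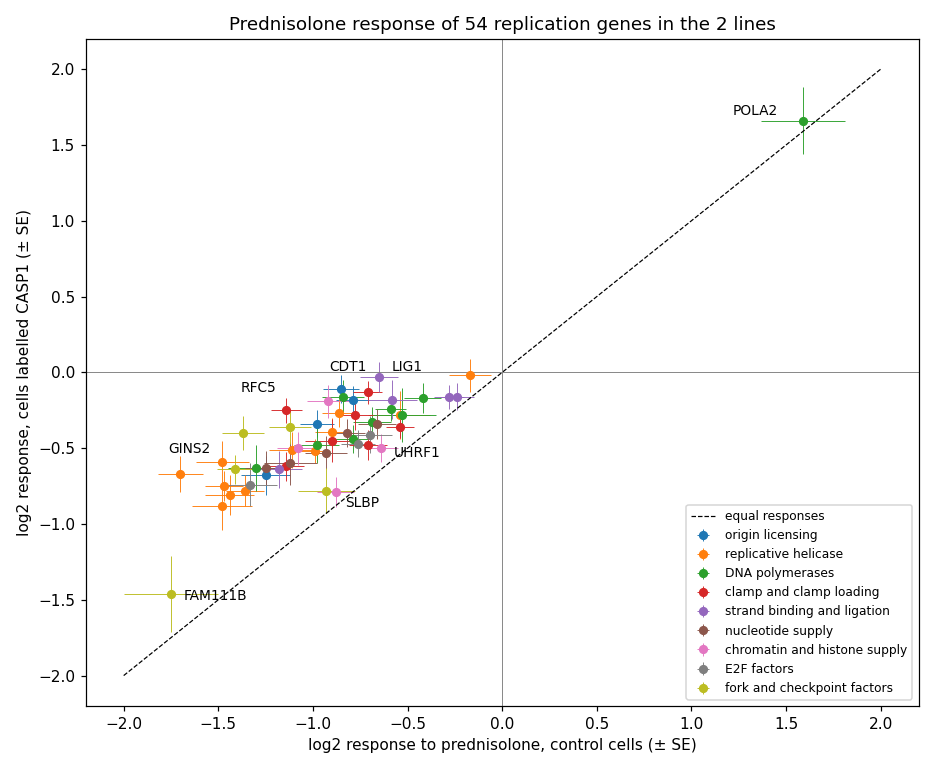
Log2 response to prednisolone of each of the 54 genes, with control cells on the x axis and cells labelled CASP1 on the y axis, coloured by role; bars are standard errors and the dashed line marks equal responses. All falling genes lie above the line, SLBP and FAM111B close to it and LIG1, CDT1 and RFC5 far from it, and POLA2 stands alone at the upper right.

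Whether the lines responded differently was tested by the interaction, taken as the response of the CASP1-labelled cells less the control response. It was above 0 for 54 of 54 genes with a median of 0.51, against 10412 of 18132 genes and a median of 0.03 over all. Of the 54, 14 were called above 0 and 0 below, where 0.524% of all genes were called above and 0.364% below. The called genes came from 6 of the 9 roles. In licensing they were CDT1, GMNN and ORC1; in the helicase GINS2, CDC45, MCM6 and MCM5; among loaders RFC5 and RFC4; and beyond these LIG1, CHAF1B, WDHD1, DTL and TIPIN. In the main fit (all arrays, deposited values, brightest probe set) no polymerase, nucleotide supply or E2F gene was called, but this depended on the setting. POLD1 was called with the replicate block (0.68, limma adjusted p = 0.005) and after quantile normalization (limma adjusted p = 0.049). RRM2 was called with the block and E2F8 with the mean of its probe sets. Without the arrays of replicate 1, POLA1, POLD1, POLD3, POLE2, RRM2, TYMS, TK1, DUT and E2F8 were called.

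GINS2 had the largest interaction, 1.03 (95% interval 0.68 to 1.39, adjusted p = 0.0053). RFC5 had the smallest p, with 0.89 (0.64 to 1.14, adjusted p = 0.0015): control arrays went from 10.34, 10.33, 10.35 and 10.42 to 9.27, 9.30, 9.17 and 9.15, and arrays labelled CASP1 from 9.84, 10.00, 9.96 and 9.96 to 9.47, 9.76, 9.73 and 9.80. Its 4 groups did not overlap in any comparison tested, and the order of the lines turned over with the drug. WDHD1 came second in size, at 0.97 (0.65 to 1.29, adjusted p = 0.0041), with 7.94, 8.44, 8.43 and 8.31 going to 6.94, 7.02, 6.92 and 6.77 in control cells. The arrays labelled CASP1 went from 8.0, 7.99, 7.87 and 8.0 to 7.73, 7.63, 7.41 and 7.51, a much narrower step.

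Among the others, DTL had 0.77 (adjusted p = 0.0091), CDT1 0.74 (adjusted p = 0.011), MCM6 0.71 (adjusted p = 0.018) and RFC4 0.57 (adjusted p = 0.013). These and the 3 above, 7 in all, were called whichever single array was left out. RFC4 and MCM6 depended on the probe set: the RFC4 interaction was 0.17 with the mean of its probe sets (limma adjusted p = 0.62) and 0.05 with their median (limma adjusted p = 0.96), and MCM6 had 0.88 with the median and was not called (limma adjusted p = 0.069). The remaining 7 were not. GMNN (0.64) lost its call without replicate 4 of the treated control cells (0.61, adjusted p = 0.051), ORC1 (0.61) and TIPIN (0.77) without any of 5 of the 16 arrays, LIG1 (0.62) and CHAF1B (0.73) without any of 12, CDC45 (0.89) without any of 13 and MCM5 (0.59) without any of 14. Their values without 1 array stayed between 0.54 (MCM5) and 1.06 (CDC45), and their largest adjusted p was 0.11 (LIG1).

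The number of genes called in the interaction moved with single arrays, in either direction. Without the 4 arrays of replicate 1, 33 of the 54 genes were called above 0, 20 of them newly and with 1 call lost (LIG1, 0.55, adjusted p = 0.051), and the median was 0.59, where 2.72% of all genes were called above 0. The number of genes called in either direction over the whole array rose from 161 to 727 under that change. Without replicate 1 of the treated control cells alone, 24 of the 54 genes were called above 0, and 219 genes in either direction over the whole array. Without the treated CASP1-labelled array of that number alone, these counts were 26 and 268. Leaving out other single arrays took the count of the 54 down to between 7 and 9, and the whole-array count to between 96 and 111. These arrays were replicates 2 and 4 of the untreated control cells (9 each), of the treated control cells (9 and 7) and of the untreated cells labelled CASP1 (8 and 9).

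At the other end, responses that did not differ detectably included POLA2 (interaction 0.07, 95% interval -0.58 to 0.73), RPA1 (0.08, -0.19 to 0.35), SLBP (0.09, -0.20 to 0.38), RPA2 (0.12), GINS3, UHRF1 and CLSPN (0.15 each). The POLA2 interval is wide, since its 4 treated arrays labelled CASP1 had an SD of 0.67. The SLBP interval is narrower, and its upper bound is below the GINS2 interaction. Without the arrays of replicate 1 the interactions of these genes ran from 0.19 (RPA2) to 0.34 (CLSPN). SLBP then had 0.28, and none of them was called.

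**Figure D4:**
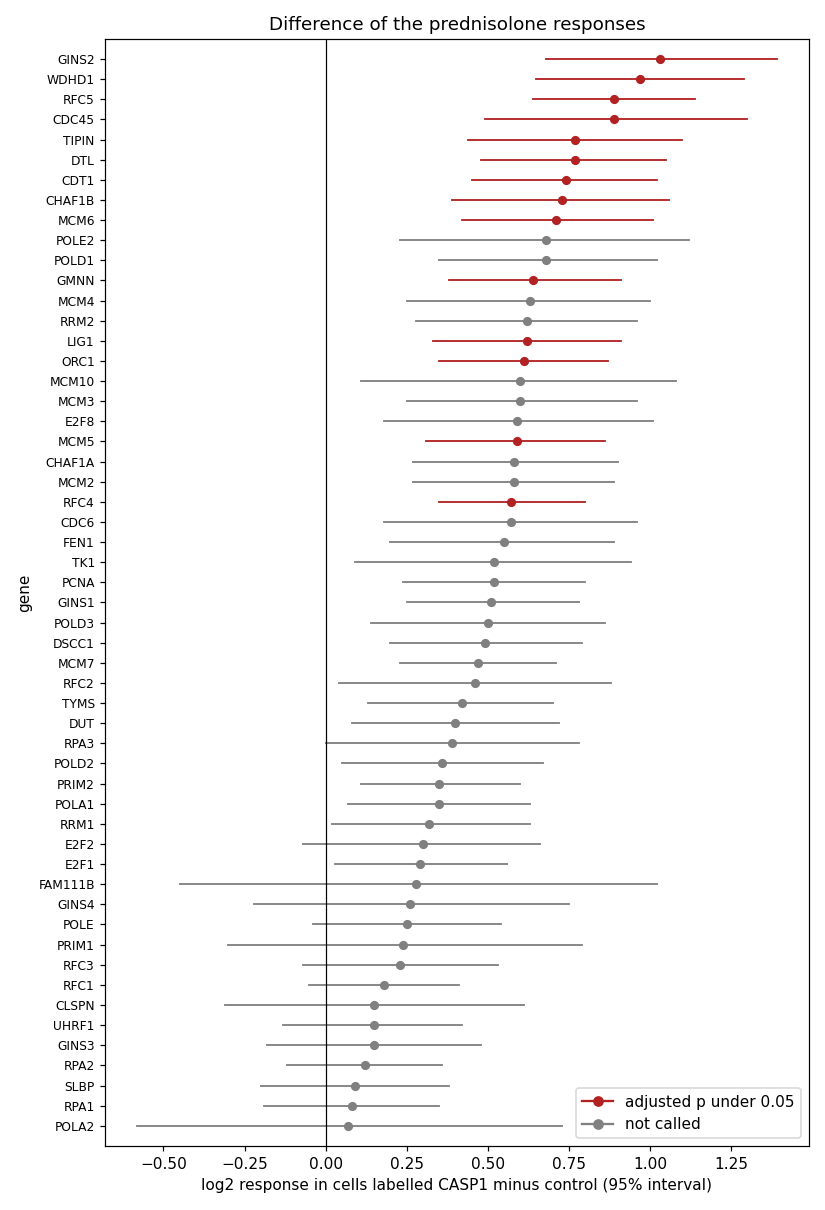
Difference of the prednisolone responses (cells labelled CASP1 minus control cells, log2) for the 54 genes, ordered by size, with 95% intervals; red marks an adjusted p under 0.05 over all genes. All 54 estimates are above 0, from 0.07 for POLA2 to 1.03 for GINS2, and 14 are red.

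Without the drug, replication genes tended to be lower in the cells labelled CASP1. Of the 54 genes 18 were called lower and 1 higher (CDT1), where 8.2% of all genes were called lower and 5.87% higher, and the median was -0.21 against 0.01 over all genes. The helicase supplied 9 of the 18. TIPIN had the largest difference, reading 8.13, 8.41, 8.26 and 8.43 in control cells and 7.59, 7.57, 7.72 and 7.73 in cells labelled CASP1 (-0.66, SE 0.11, adjusted p = 0.00053). MCM4 followed with 10.57, 10.98, 10.82 and 10.75 against 10.01, 10.13, 10.12 and 10.27 (-0.64, adjusted p = 0.0019). Neither gene's arrays overlapped between the lines.

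The next in size among the called genes were CDC45 (-0.56), MCM3 (-0.56), UHRF1 (-0.55), GINS4 (-0.54), POLA1 (-0.50), MCM6 (-0.50), GINS2 (-0.49) and CDC6 (-0.46). POLA2 had -0.58 and was not called (adjusted p = 0.097); it was called without the arrays of replicate 1 (-0.46, limma adjusted p = 0.0027) and with the 8 untreated arrays alone (limma adjusted p = 0.0038). DUT, GINS3, MCM2, RFC5, CHAF1B, DSCC1, MCM5 and POLE were called at -0.44 to -0.30. Calls for GINS4, CDC6, POLE, DSCC1 and CHAF1B were lost without at least 1 of the 8 arrays (from 2 for DSCC1 to 7 for POLE), and their largest adjusted p was 0.13. Same-numbered arrays of these untreated groups correlated at 0.147 to 0.434, and only 0.434 lay outside the range of differently numbered arrays (-0.351 to 0.3). With the replicate number as a block 19 genes were called lower and 2 higher, CHAF1A joining at -0.32 (limma adjusted p = 0.03) and RRM2 at 0.27 (limma adjusted p = 0.047). Over the whole array 3213 genes were then called in either direction, against 2552 without the block. With replicate 1 left out, 26 were lower and 3 higher, the 3 being CDT1, RFC2 and RRM2, where 12.8% of all genes were called lower and 8.53% higher. CDT1 was not called with the median of its probe sets.

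Under prednisolone the order between the lines was turned for most of these genes. Of the 54 genes 19 were called higher in the cells labelled CASP1 and 1 lower (UHRF1), where 7.88% of all genes were called higher and 8.52% lower, and the median was 0.23 against 0.04 over all genes. By sign, 38 genes were lower without and higher with the drug, and 2 of them were called in both, GINS2 and RFC5. These line differences share arrays with the responses above, so they restate the same means.

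After CDT1, RRM2 had the largest difference, with treated control arrays at 9.77, 9.36, 9.17 and 9.30 and treated arrays labelled CASP1 at 10.46, 10.10, 10.33 and 10.25 (0.89, SE 0.11, adjusted p = 3.3e-05). Its second probe set did not show this: the line differences there were -0.64 without and -0.26 with the drug, neither called, while its control response (-1.23) matched the first. LIG1 read 7.51, 7.59, 7.61 and 7.46 in treated control cells and 8.41, 7.98, 8.42 and 8.29 in treated cells labelled CASP1 (0.73, SE 0.099, adjusted p = 5.7e-05). Both genes had treated groups that did not overlap on the brightest probe set.

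The others of the largest 10 were WDHD1 (0.66), ORC1 (0.63), RFC2 (0.62), DTL (0.62), GINS2 (0.54), POLE2 (0.53) and GMNN (0.53). E2F8, POLD1, RFC4, GINS1, RFC5, TYMS, POLD3, E2F1 and MCM7 were called higher at 0.52 to 0.25. Those of POLD3, POLE2 and MCM7 were lost without any of 7, 5 and 5 of the 8 arrays, with a largest adjusted p of 0.15. UHRF1 was the exception in direction: it read 11.30, 11.08, 10.97 and 10.92 in treated control cells and 10.54, 10.61, 10.79 and 10.72 in treated cells labelled CASP1 (-0.40, SE 0.091, adjusted p = 0.0049), and it was lower there without the drug as well. Without the arrays of replicate 1, 34 genes were called higher, among them MCM10 at 0.74 (adjusted p = 1.8e-05) and TK1 at 0.70, where 11.6% of all genes were called higher.

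**Figure D5:**
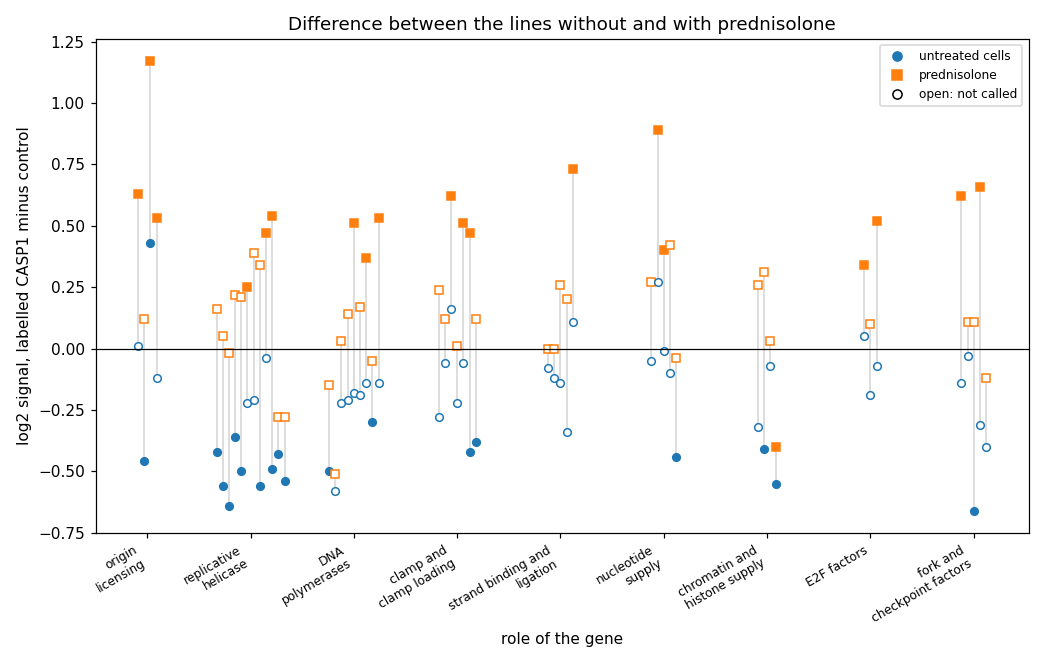
Log2 difference between cells labelled CASP1 and control cells for each of the 54 genes, grouped by role, without drug (circles) and with prednisolone (squares); filled symbols have an adjusted p under 0.05 and a grey line joins the 2 values of a gene. TIPIN (-0.66) and MCM4 (-0.64) start lowest, and CDT1 in the licensing group ends highest, at 1.17.

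Members with several probe sets allow a check within the array. The 54 genes had 134 probe sets, 13 genes having 1 and 41 having up to 6. Of the 80 that were not the brightest, 77 had the sign of the brightest in the control response, 76 in the response of cells labelled CASP1, 69 and 65 in the untreated and treated line differences, and 77 in the interaction. Of all 134, 117 were called lower in control cells and 2 higher, and both of those 2 were POLA2 probe sets. No share over all probe sets with 1 gene is given beside these counts, so they describe the probe sets of the 54 genes alone.

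Other replication genes, a list of 45 measured genes such as helicase and origin accessory factors, followed in part. In control cells 27 were called lower and 1 higher (median -0.45), against 8.43% and 5.73% of all genes. HELLS, a chromatin remodeller, had -1.06, DNA2, a nuclease and helicase of Okazaki fragments, -1.0, and TICRR, which helps to fire origins, -0.96, while POLD4, the small subunit of polymerase delta, rose by 0.78. Of the 45, 11 were called lower in cells labelled CASP1 (median -0.20), against 3.35% of all genes. TICRR was the one gene of the list called in the interaction (0.91, SE 0.14, adjusted p = 0.0033).

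Of 26 measured genes of the E2F and RB network, which controls S-phase entry, 15 were called lower and 2 higher in control cells, where 8.43% and 5.73% of all genes were. SKP2, the ubiquitin ligase subunit that targets the inhibitor CDKN1B for degradation, had -1.73 (SE 0.10, adjusted p = 2.2e-09), the phosphatase CDC25A -1.55 and the cyclin gene CCND3 -1.41. The 2 that rose were CCND2 (0.72) and E2F3 (0.38). The cells labelled CASP1 had 7 called lower, against 3.35% of all genes, with CCND3 at -1.08. SKP2 and CDC25A had called interactions of 1.23 and 0.78.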

How the data were processed

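The authors deposited log2 signals per probe set, made with RMA per the submitters' processing notes. RMA subtracts background, quantile-normalizes the arrays and summarizes probes. Neither its software nor the probe set definition is stated in the sources used here. It puts all arrays to a common scale, so RNA per cell was not measured. The table had 49395 probe sets and 0 columns that belonged to no sample.

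By GEO's platform annotation, 44988 probe sets named exactly 1 gene. Each gene was read on the brightest of these over 16 arrays, for 18132 genes in all. limma 3.58.1 under R 4.3.3 fitted 4 group means to all 16 arrays (12 residual and 5.46 prior degrees of freedom, median residual SD 0.167), and the moderated two-sided p-values received a Benjamini-Hochberg adjustment across the 18132 genes. The number of arrays limits the precision. On simulated data of the same size, 59% of changes of 0.5 and 96% of changes of 1 in the control response were recovered, with 7 false calls. The simulation changed 100 genes at each size, with noise independent between genes and no effect of replicate 1. In the data 2568 genes were called in that comparison and replicate 1 stood apart, so these rates need not hold there.

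Members and lists were chosen with earlier results of these data known. In each role, values by array are given for the largest control response; genes not called there, opposite in direction, or called in the interaction or a line difference are named, with values for the 10 largest where there were more, and up to 4 called genes of each further list. Values by array were added for others after they were seen. Alternatives covered renormalization, a filter on dim genes, the probe set rule, the variance model, a replicate block, replicate 1, single arrays and fits of 8 arrays. The replicate numbers were checked by the correlation of same-numbered arrays' deviations from their group means. In the untreated groups all 4 pairs exceeded 0.1 (0.434, 0.147, 0.167 and 0.18), and in the other comparisons at least 1 pair did not. The values 0.147, 0.167 and 0.18 lay inside the range of differently numbered arrays (-0.351 to 0.3), so they do not settle whether the numbers mark pairs. The main fit used no block, and its counts and p-values for the untreated lines are unpaired. Counts with the replicate number as a block are given beside them. Some genes of the lists and the promoters of 9 members were not analysed here.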

Additional observations from a re-analysis of the deposited data

Results flagged for a closer look

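In 19 of the 216 sets of 4 arrays (8.8%) 1 array lay far from the other 3 (Dixon's gap test at 95%), where chance gives about 1 in 20. In 18 of the 19 that array was replicate 1. In untreated control cells replicate 1 was low for GMNN (10.27, others 10.45 to 10.47) and FAM111B (6.11, others 6.92 to 6.97), and high for POLA2 (8.17, others 7.87 to 7.90) and TK1 (9.93, others 9.77 to 9.79). In treated control cells it was high for MCM7 (11.31, others 11.08 to 11.11), POLD1 (7.84, others 7.45 to 7.47), DSCC1 (7.82, others 7.52 to 7.55), E2F2 (10.11, others 9.60 to 9.64) and E2F8 (8.10, others 7.5 to 7.56), and low for PRIM1 (9.14, others 9.42 to 9.45). In untreated cells labelled CASP1 it was high for ORC1 (7.62, others 7.47 to 7.48) and TYMS (12.39, others 12.21 to 12.22) and low for PRIM1 (9.32, others 9.77 to 9.78); WDHD1 was the exception, with replicate 3 low at 7.87 (others 7.99 to 8.0). In treated cells labelled CASP1 replicate 1 was low for MCM4 (8.89, others 9.42 to 9.51), GINS3 (8.14, others 8.69 to 8.72), DSCC1 (7.45, others 7.79 to 7.84) and DUT (10.17, others 10.60 to 10.66), and high for RFC4 (10.67, others 10.45 to 10.46).

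The prednisolone response differed between the lines by limma's interaction test (adjusted p under 0.05) for 14 genes, with a smaller fall in the cells labelled CASP1 for each. The values were 1.03 for GINS2, 0.97 for WDHD1, 0.89 for CDC45, 0.89 for RFC5, 0.77 for DTL, 0.77 for TIPIN, 0.74 for CDT1, 0.73 for CHAF1B, 0.71 for MCM6, 0.64 for GMNN, 0.62 for LIG1, 0.61 for ORC1, 0.59 for MCM5 and 0.57 for RFC4.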

How the results depend on the processing

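The medians of the 54 genes kept their direction in each of the 5 comparisons under every alternative run. With the replicate number as a block, 51 genes were called lower in control cells, 34 in cells labelled CASP1, and 19 lower and 2 higher between the untreated lines. Between the treated lines 20 were called higher, and 17 were called above 0 in the interaction. Calls in either direction over the whole array rose as well with the block. In the order of these 5 comparisons they went from 2568 to 3174, 1150 to 1559, 2552 to 3213, 2974 to 3819 and 161 to 289. Same-numbered arrays correlated at 0.191 to 0.507 for replicate 1 and at -0.116 to 0.26 for replicates 2 to 4, and differently numbered ones at -0.351 to 0.3. The single gene called higher between the untreated lines became 0 genes with the median of each gene's probe sets, 3 without the 4 arrays of replicate 1 and 2 with only the 8 arrays compared. Without the 4 arrays of replicate 1, 34 genes instead of 19 were called higher between the treated lines. In the interaction 33 instead of 14 were then called above 0. Leaving out single arrays gave 7 to 26 called above 0 there and 16 to 26 higher between the treated lines. It gave 13 to 17 lower between the untreated lines. In the responses of control cells and cells labelled CASP1 it gave 48 to 50 and 27 to 33 lower. Whole-array calls in either direction moved with single arrays as well, from 96 to 268 in the interaction and 2244 to 2877 between the treated lines. They ran from 1985 to 2369 between the untreated lines, 2035 to 2556 in control cells and 791 to 1292 in cells labelled CASP1. GINS1 reversed between the treated lines with the median of its probe sets, from 0.47 to -0.004; the cause was not tested, and its 2 dimmer probe sets had treated means of 5.97 and 5.97, and 4.90 and 5.02, in control cells and cells labelled CASP1. No other gene's called direction reversed. Scaling moved the median of all genes by at most 0.04. Calls made with all arrays held in every setting for 47 of 51 genes in control cells, 20 of 32 in cells labelled CASP1, 13 of 19 and 13 of 20 between the untreated and treated lines, and 5 of 14 in the interaction (CDT1, GINS2, RFC5, DTL and WDHD1). How many calls held over all genes was not computed.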

Other observations

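Genes of G2 and mitosis, the phases that follow DNA synthesis, were read beside the 54 replication genes. Of 19 measured, 4 were called lower in control cells after prednisolone, against 8.43% of all genes, and the median was -0.28. These were CCNA2, the cyclin that spans S phase and G2 (-0.73), CDK1, the mitotic kinase (-0.58), AURKB, a kinase of the chromosomal passenger complex (-0.57), and KIF11, a spindle motor (-0.55). The median was -0.02 in cells labelled CASP1, where CDK1 alone was called lower (-0.31). Between the lines 13 of the 19 were called higher in cells labelled CASP1 without the drug (median 0.50) and 17 with it (median 0.87), where 5.87% and 7.88% of all genes were called higher. MKI67, the proliferation marker Ki-67, differed by 1.59 and 1.79 and AURKA, a centrosome kinase, by 1.07 and 1.35. In the same untreated cells the median of the 54 replication genes was -0.21. The lists were not tested against each other.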
